A study of Mus musculus with 15 samples.

Results

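The genes described here encode the classical axon guidance families: semaphorins with their plexin and neuropilin receptors, Slits with Robo receptors, netrins with Unc5 receptors, and ephrins with Eph receptors. A rule on gene symbols picked them from transcript clusters annotated with 1 gene symbol, and the choice of these families was made with earlier results of these data known. The rule matched 72 transcript clusters of 67 genes, out of 18718 genes tested, and where a gene had another transcript cluster, as 5 genes did, that of higher mean signal was kept.

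Guidance molecules were first known for steering growing axons, and they also act on the adhesion and migration of vascular, immune and mesenchymal cells. Class 3 semaphorins, Slits and netrins are secreted, while ephrins and the other semaphorins of the mouse stay mostly on the cell surface and act on touching cells. Semaphorins bind plexins, with neuropilins as co-receptors for most class 3 members, Slits bind Robo receptors, and netrins bind Dcc and the Unc5 receptors. In lymphoid organs such cues are known to influence the migration of thymocytes and dendritic cells and the patterning of vessels.

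The cells were mesenchymal cells of C57BL/6 mice aged 2 weeks, freed with liberase TM and DNase I and sorted on PDGFRβ, a receptor of mesenchymal and perivascular cells. Thymus gave PDPN+BP3- and PDPN- cells, where PDPN is podoplanin and BP3 the product of Bst1. Lymph nodes of 3 sites, inguinal, brachial and axillary, were pooled and sorted into PDPN-, PDPN+BP3- and PDPN+BP3+ cells. Ly51, the product of Enpep, was a further positive gate for PDPN- cells. The labels name no difference in genotype or treatment between the groups. There were 5 populations with 3 arrays each, 1 array per experiment. An array used a pool of 3 mice for thymus or 10 to 11 mice for lymph node, so that pool size and tissue cannot be told apart. The measure was the signal on Affymetrix Mouse Gene 1.1 ST arrays on a log2 scale, called log2 signal here. A log2 difference is the mean of the first population minus that of the second, given ± its standard error in the limma fit (n = 3 arrays per population). A gene was called where its p-value, adjusted over all 18718 genes of that comparison, was below 0.05. The p-values measure the spread between these sorted pools.

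The labels held on the sort antigens. Mean log2 signal of Pdpn was 8.16 to 9.11 in the podoplanin-positive populations and 3.01 to 3.41 in the PDPN- ones, Bst1 was 8.74 in BP3+ cells and 2.18 to 3.30 elsewhere, and Enpep was 7.69 to 8.07 in PDPN- cells and 3.74 to 4.61 elsewhere. Pdgfrb, the sort antigen common to all, was 8.94 to 10.61. Correlations across genes were 0.988 to 0.996 within a population and 0.932 to 0.981 between populations. The median signal of thymus PDPN+BP3- replicate 1 was 3.58, against 3.77 to 3.885 on the other 14 arrays. Without it, 24 guidance genes were higher and 10 lower in thymus PDPN+BP3- against PDPN- cells. The calls of Ntn4 (adjusted p 0.057) and Plxnb2 (0.104) there ended. The shares of all genes called without that array are not given here.

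Of the 67 guidance genes, 50 differed among the 5 populations in limma's F test, or 74.6% against a background of 45.3% of all genes. The range of the 5 population means had a median of 1.38 over the guidance genes and 0.48 over all genes. The median of the largest SD within a population was 0.31 for the guidance genes and 0.28 for all genes. All plexins but Plxnb3, both neuropilins, all measured EphB receptors and all ephrins but Efna3 were among the 50. The 17 others were Sema3e, Sema3g, Sema4f, Sema4g, Plxnb3, Slit1, Robo3, Robo4, Ntn3, Ntn5, Unc5d, Epha1, Epha5, Epha6, Epha8, Epha10 and Efna3. Of the 50, the mean was highest for 14 in PDPN+BP3- and for 14 in PDPN+BP3+ cells of the lymph node, in thymus PDPN- cells for 10, in thymus PDPN+BP3- cells for 9 and in lymph node PDPN- cells for 3. Among all genes past the F test the shares were 16.0%, 30.3%, 23.3%, 13.6% and 16.9% in the same order, against 28.0%, 28.0%, 20.0%, 18.0% and 6.0% of the guidance genes. The median of the whole table was 3.80, and 18 guidance genes had no population mean above it. Their signal need not stand above background. Another 25 were above it in every population. A filter on low signal kept 49 of the 67 guidance genes and 10565 of all 18718 genes. The background shares here and below thus rest on a larger share of low-signal genes. The calls were also rerun after this filter. Shares of all genes called after it are not given here, and the part of signal level in the counts was not tested further.

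**Figure D1:**
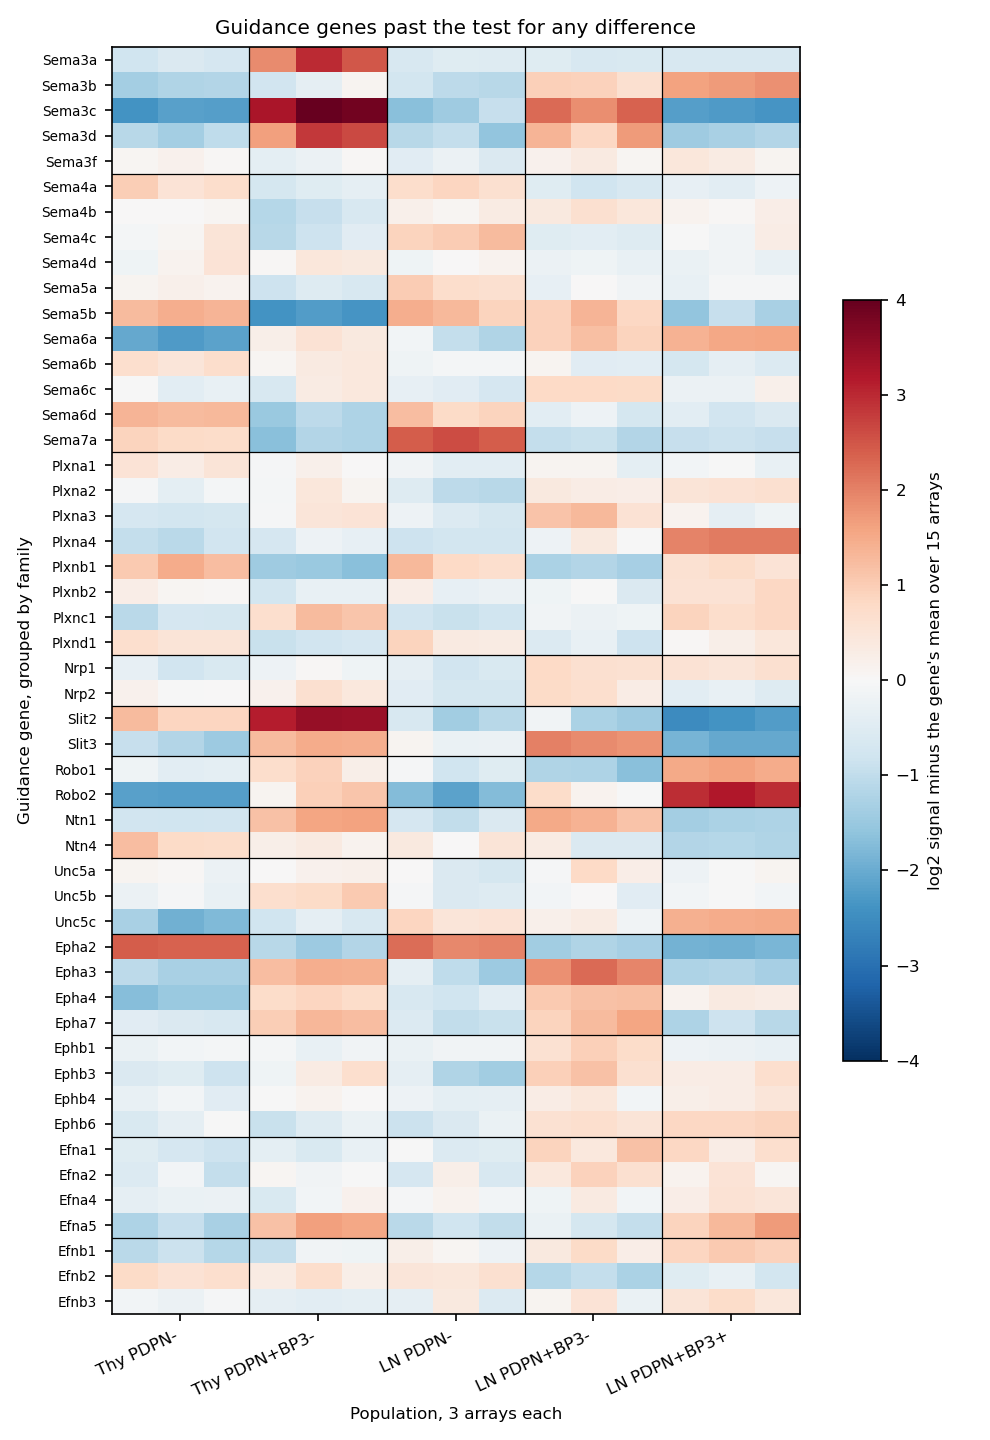
Log2 signal of the 50 guidance genes past the F test on each of the 15 arrays, as the difference from the gene's mean over all arrays (colour, red above and blue below), with genes in rows grouped by family and the 3 arrays of each population side by side. Sema3c, Sema3d and Slit3 are red in both PDPN+BP3- populations, Epha2, Sema7a and Sema6d are red in both PDPN- populations, and Robo2, Plxna4 and Sema3b are reddest in lymph node PDPN+BP3+ cells (Thy, thymus; LN, lymph node).

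Promoter sequences of 6 genes are shown because 5 of them differed between PDPN+BP3- and PDPN- cells in both tissues, while Slit2 did so in the thymus. All 6 were picked after their values were seen. Each is the 250 bases before the RefSeq transcript start, from RefSeq on build GRCm38.p6, 5′ to 3′ on the plus strand, which is also the strand of each gene. Capitals mark matches on either strand to the motifs searched: the GC box GGGCGG, the TATA box TATAAA, the CCAAT box CCAAT, the E-box CACGTG, the AP-1 motif TGACTCA, the RBPJ motif TGGGAA and the TEAD motif GGAATG.
Sema3c: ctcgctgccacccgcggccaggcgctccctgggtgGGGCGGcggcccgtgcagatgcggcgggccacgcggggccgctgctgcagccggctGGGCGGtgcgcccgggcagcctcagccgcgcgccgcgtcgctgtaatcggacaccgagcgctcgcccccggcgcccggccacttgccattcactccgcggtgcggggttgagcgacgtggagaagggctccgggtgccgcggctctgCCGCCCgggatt
Sema3d: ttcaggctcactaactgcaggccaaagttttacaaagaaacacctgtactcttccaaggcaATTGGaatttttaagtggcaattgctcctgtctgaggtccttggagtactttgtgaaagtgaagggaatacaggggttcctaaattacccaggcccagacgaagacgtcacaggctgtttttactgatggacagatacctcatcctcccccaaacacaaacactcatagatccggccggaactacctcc
Slit3: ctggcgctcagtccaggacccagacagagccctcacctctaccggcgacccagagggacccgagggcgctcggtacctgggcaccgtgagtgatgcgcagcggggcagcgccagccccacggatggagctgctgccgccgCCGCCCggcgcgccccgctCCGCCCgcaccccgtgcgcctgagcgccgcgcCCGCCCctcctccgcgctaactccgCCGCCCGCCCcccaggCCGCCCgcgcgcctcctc
Slit2: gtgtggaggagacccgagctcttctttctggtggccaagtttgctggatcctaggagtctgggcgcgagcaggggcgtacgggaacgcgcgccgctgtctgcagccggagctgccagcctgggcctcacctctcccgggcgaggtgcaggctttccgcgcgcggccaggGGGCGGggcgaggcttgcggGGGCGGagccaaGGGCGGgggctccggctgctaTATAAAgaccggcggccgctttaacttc
Epha2: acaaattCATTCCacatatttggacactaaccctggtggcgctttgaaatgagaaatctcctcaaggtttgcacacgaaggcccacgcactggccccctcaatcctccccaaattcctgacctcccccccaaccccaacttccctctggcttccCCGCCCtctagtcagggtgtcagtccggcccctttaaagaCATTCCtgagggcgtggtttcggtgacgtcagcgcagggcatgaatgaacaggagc
Sema7a: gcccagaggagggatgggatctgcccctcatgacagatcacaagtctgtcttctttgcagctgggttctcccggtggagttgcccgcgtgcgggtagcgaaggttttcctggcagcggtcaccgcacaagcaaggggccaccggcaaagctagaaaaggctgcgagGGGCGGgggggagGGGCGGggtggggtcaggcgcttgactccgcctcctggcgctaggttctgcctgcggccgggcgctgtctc

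The Sema3c window (chr5:17574566-17574815) held 3 GC boxes, the Slit2 window (chr5:47982905-47983154) 3 GC boxes and a TATA box 28 to 23 bases before the start, and the Slit3 window (chr11:35121206-35121455) 6 GC boxes, of which those at 34 to 29 and 30 to 25 bases before the start overlap. The Sema3d window (chr5:12382916-12383165) held 1 CCAAT box and no GC box. Among the genes higher in PDPN- cells, the Epha2 window (chr4:141300971-141301220) held 1 GC box and 2 TEAD motifs and the Sema7a window (chr9:57939862-57940111) 2 GC boxes. GC content was 46.8% in the Sema3d window, 55.6% for Epha2, 66.4% for Sema7a, 69.6% for Slit2, 78.4% for Sema3c and 78.8% for Slit3. Windows were found for 58 of the 67 guidance genes, 74 windows in all, and 71.6% of them held a GC box against 32.7% of all 32851 windows. The TATA box was in 2.70% of the guidance windows against 12.4% of all windows, and the CCAAT box in 25.7% against 33.8%. The E-box was in 5.41% against 6.02% and AP-1 in 2.70% against 4.46%. RBPJ was in 17.6% against 21.6% and TEAD in 10.8% against 12.6%. A match describes letters only, and says nothing of whether a factor binds there.

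Between PDPN+BP3- and PDPN- cells of the thymus, the secreted ligands Sema3a, Sema3b, Sema3c, Sema3d, Slit2, Slit3 and Ntn1 were higher in the PDPN+BP3- subset, with Sema3c differing most (5.96 ± 0.20). The secreted ligand Ntn4 was lower (-0.67 ± 0.21, adjusted p 0.023), a call that ended without PDPN- replicate 1 (adjusted p 0.123), PDPN+BP3- replicate 1 (0.057) or PDPN+BP3- replicate 3 (0.0622), and with cyclic loess (0.163). Sema5b, Epha2, Plxnb1, Sema6d and Sema7a were lower, by -3.68 to -2.15. Of the 67 guidance genes 22 were higher in PDPN+BP3- cells, or 32.8%, where 10.3% of all genes were higher, and 12 were lower, or 17.9%, where 18.2% of all genes were lower. The median difference was 0.10 over the guidance genes and -0.05 over all genes. In these bulk samples, fewer cells that make a transcript and less of it per cell cannot be told apart.

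Of the 7 class 3 semaphorins 4 were higher in thymus PDPN+BP3- cells and 0 lower. Sema3c, a secreted ligand that acts through neuropilins and plexins, read 2.05, 2.28 and 2.24 in thymus PDPN- cells and 7.71, 8.44 and 8.30 in thymus PDPN+BP3- cells. For Sema3c in the lymph node, the arrays gave 2.77, 3.02 and 3.52 in PDPN- cells, 6.72, 6.30 and 6.80 in PDPN+BP3- cells and 2.25, 2.17 and 2.07 in PDPN+BP3+ cells. Both PDPN+BP3- populations stood apart from the other 3, and no array of thymus PDPN+BP3- cells overlapped any other population (adjusted p 1.42e-12 in the thymus). Sema3d, another secreted semaphorin, read 2.38, 2.13 and 2.46 in thymus PDPN- cells and 5.12, 6.30 and 6.11 in thymus PDPN+BP3- cells. For Sema3d in the lymph node, the arrays gave 2.35, 2.52 and 1.91 in PDPN- cells, 4.82, 4.31 and 5.17 in PDPN+BP3- cells and 2.06, 2.18 and 2.29 in PDPN+BP3+ cells. The same populations were high, with a thymus difference of 3.52 ± 0.26, adjusted p 2.1e-08. Sema3a, the ligand for which neuropilin-1 was first described as a receptor, read 1.80, 2.01 and 1.92 in thymus PDPN- cells and 4.48, 5.59 and 5.08 in thymus PDPN+BP3- cells. For Sema3a in the lymph node, the arrays gave 1.95, 2.10 and 2.07 in PDPN- cells, 2.12, 1.94 and 2.0 in PDPN+BP3- cells and 1.97, 1.96 and 1.95 in PDPN+BP3+ cells. It was high in thymus PDPN+BP3- cells alone, with no overlap and all 12 other arrays at 2.12 or below (3.14 ± 0.19, adjusted p 1.32e-09). On the RefSeq map Sema3d and Sema3a lie next to each other on chromosome 5 with 0 protein-coding genes between them, yet Sema3a did not share the lymph node signal of Sema3d.

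Slit2 and Slit3, secreted ligands of the Robo receptors, were both higher in thymus PDPN+BP3- cells. Slit2 read 6.29, 5.89 and 5.86 in thymus PDPN- cells and 8.17, 8.51 and 8.47 in thymus PDPN+BP3- cells. For Slit2 in the lymph node, the arrays gave 4.39, 3.62 and 3.91 in PDPN- cells, 4.89, 3.76 and 3.59 in PDPN+BP3- cells and 2.49, 2.62 and 2.77 in PDPN+BP3+ cells. Its signal was highest in thymus PDPN+BP3- cells, next in thymus PDPN- cells and lowest in lymph node PDPN+BP3+ cells, and neither thymus population overlapped any lymph node population (2.37 ± 0.27, adjusted p 3.44e-06 within the thymus). Slit3 read 7.39, 7.12 and 6.85 in thymus PDPN- cells and 9.57, 9.80 and 9.75 in thymus PDPN+BP3- cells. For Slit3 in the lymph node, the arrays gave 8.41, 8.05 and 8.07 in PDPN- cells, 10.31, 10.19 and 10.11 in PDPN+BP3- cells and 6.44, 6.27 and 6.25 in PDPN+BP3+ cells. Both PDPN+BP3- populations stood above the 3 others, and BP3+ cells were lowest (2.59 ± 0.14, adjusted p 3.6e-10 within the thymus). Of the Robo receptors, Robo2, a receptor that binds Slits, read 2.16, 2.13 and 2.13 in thymus PDPN- cells and 4.43, 5.28 and 5.44 in thymus PDPN+BP3- cells. For Robo2 in the lymph node, the arrays gave 2.60, 2.17 and 2.58 in PDPN- cells, 5.04, 4.46 and 4.32 in PDPN+BP3- cells and 7.28, 7.51 and 7.28 in PDPN+BP3+ cells. It was near the low end of the table in both PDPN- populations and rose in thymus PDPN+BP3- cells (2.91 ± 0.23, adjusted p 3.41e-08).

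**Figure D2:**
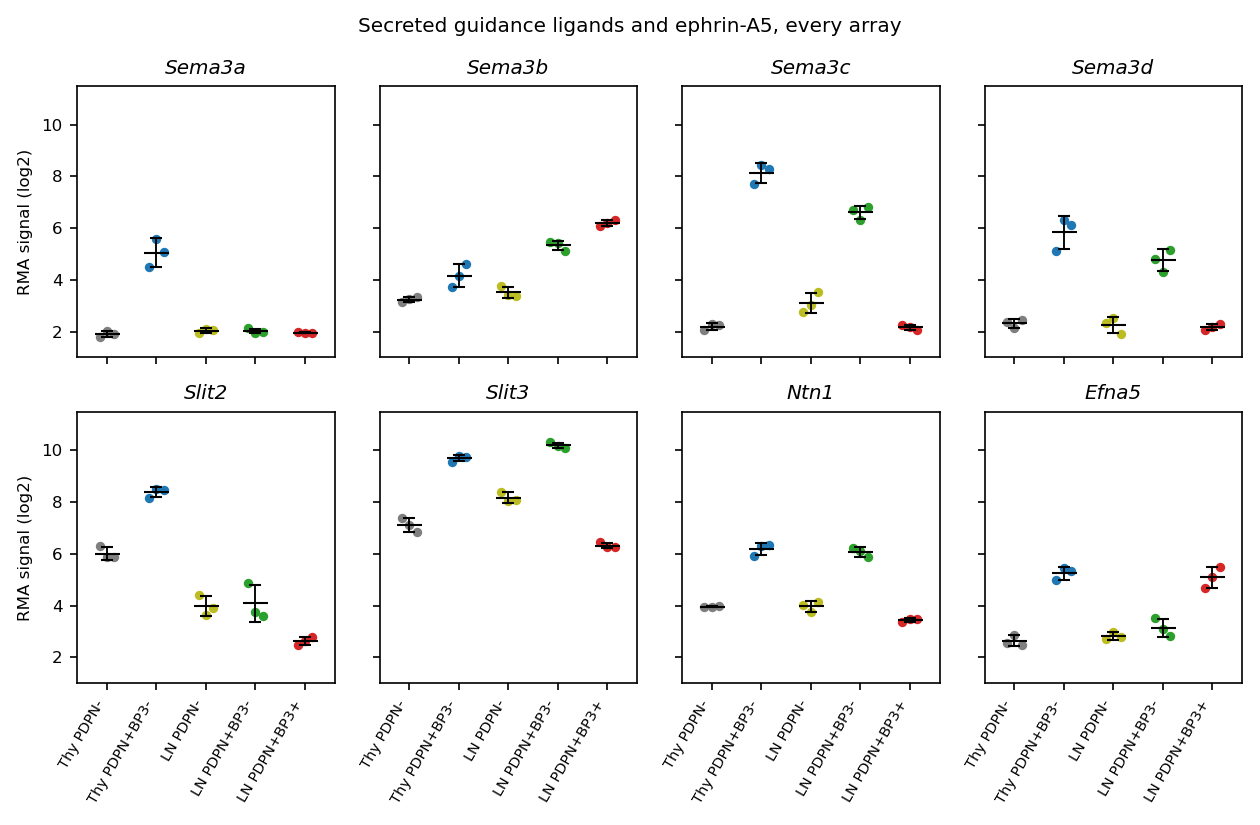
Log2 RMA signal (y axis) of 7 secreted guidance ligands and ephrin-A5 in the 5 populations (x axis); points are the 3 arrays and bars the mean ± SD. Sema3a is high in thymus PDPN+BP3- cells alone, at 4.48 to 5.59, Sema3c and Sema3d are high in both PDPN+BP3- populations, and Slit2 is higher in both thymus populations than in any lymph node population.

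Of the 13 membrane-bound or GPI-anchored semaphorins 7 were lower in thymus PDPN+BP3- cells and 1, Sema6a, was higher. Sema5b, a transmembrane semaphorin with thrombospondin repeats, read 6.32, 6.51 and 6.41 in thymus PDPN- cells and 2.67, 2.83 and 2.70 in thymus PDPN+BP3- cells. For Sema5b in the lymph node, the arrays gave 6.51, 6.34 and 5.94 in PDPN- cells, 5.97, 6.43 and 5.88 in PDPN+BP3- cells and 3.47, 4.12 and 3.76 in PDPN+BP3+ cells. Thymus PDPN+BP3- cells were lowest, lymph node PDPN+BP3+ cells next, and the 3 other populations overlapped one another (-3.68 ± 0.18, adjusted p 1.02e-10 in the thymus). Sema6d, a transmembrane ligand of plexin-A1, read 9.18, 9.08 and 9.12 in thymus PDPN- cells and 6.32, 6.75 and 6.58 in thymus PDPN+BP3- cells. For Sema6d in the lymph node, the arrays gave 9.06, 8.57 and 8.71 in PDPN- cells, 7.40, 7.61 and 7.12 in PDPN+BP3- cells and 7.40, 7.05 and 7.23 in PDPN+BP3+ cells. Arrays of PDPN- cells, at 8.57 or above, lay over all podoplanin-positive arrays, at 7.61 or below (-2.58 ± 0.16 in the thymus). Sema7a, a GPI-anchored semaphorin that binds plexin-C1 and integrins, read 6.26, 6.13 and 6.10 in thymus PDPN- cells and 3.69, 4.21 and 4.14 in thymus PDPN+BP3- cells. For Sema7a in the lymph node, the arrays gave 7.79, 7.97 and 7.78 in PDPN- cells, 4.43, 4.48 and 4.21 in PDPN+BP3- cells and 4.44, 4.52 and 4.44 in PDPN+BP3+ cells. The PDPN- cells of the lymph node were highest and those of the thymus next, with all 9 podoplanin-positive arrays at 4.52 or below (-2.15 ± 0.13, adjusted p 1.56e-09 in the thymus).

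Sema4a, a semaphorin expressed on immune cells among others, read 5.07, 4.64 and 4.79 in thymus PDPN- cells and 3.37, 3.58 and 3.71 in thymus PDPN+BP3- cells. For Sema4a in the lymph node, the arrays gave 4.78, 4.94 and 4.71 in PDPN- cells, 3.58, 3.27 and 3.45 in PDPN+BP3- cells and 3.75, 3.65 and 3.88 in PDPN+BP3+ cells. Both PDPN- populations lay above all podoplanin-positive arrays (-1.28 ± 0.13, adjusted p 1.24e-06 in the thymus). Sema4c, a ligand of plexin-B2, read 6.64, 6.79 and 7.22 in thymus PDPN- cells and 5.60, 5.88 and 6.25 in thymus PDPN+BP3- cells. For Sema4c in the lymph node, the arrays gave 7.61, 7.72 and 7.97 in PDPN- cells, 6.24, 6.29 and 6.20 in PDPN+BP3- cells and 6.70, 6.57 and 7.01 in PDPN+BP3+ cells. It was highest in lymph node PDPN- cells and higher in PDPN- than in PDPN+BP3- cells of the thymus (-0.97 ± 0.18, adjusted p 0.000468). The exception to these falls was Sema6a, a transmembrane ligand of plexin-A2 and plexin-A4, which read 3.30, 3.10 and 3.23 in thymus PDPN- cells and 5.58, 5.94 and 5.76 in thymus PDPN+BP3- cells. For Sema6a in the lymph node, the arrays gave 5.24, 4.40 and 4.15 in PDPN- cells, 6.27, 6.56 and 6.24 in PDPN+BP3- cells and 6.76, 6.91 and 6.95 in PDPN+BP3+ cells. It was lowest in thymus PDPN- cells without overlap and highest in lymph node PDPN+BP3+ cells (2.55 ± 0.20, adjusted p 5.16e-08 in the thymus).

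The plexins, receptors of the semaphorins, moved in both directions in the thymus, with 3 higher and 3 lower of 9. Plxnb1, the receptor of Sema4d, read 7.15, 7.56 and 7.32 in thymus PDPN- cells and 4.68, 4.60 and 4.41 in thymus PDPN+BP3- cells. For Plxnb1 in the lymph node, the arrays gave 7.38, 6.89 and 6.75 in PDPN- cells, 4.82, 4.91 and 4.75 in PDPN+BP3- cells and 6.69, 6.81 and 6.64 in PDPN+BP3+ cells. Both PDPN+BP3- populations were low and did not overlap the other 3 (-2.78 ± 0.15, adjusted p 3.63e-10 in the thymus). The second Plxnb1 transcript cluster was flat, with means of 2.82 to 3.16 in the 5 populations, and with the mean of both clusters the thymus difference was -1.28, so the size of this change depends on the cluster. Plxnd1, the receptor of Sema3e, read 8.70, 8.52 and 8.54 in thymus PDPN- cells and 7.12, 7.25 and 7.33 in thymus PDPN+BP3- cells. For Plxnd1 in the lymph node, the arrays gave 8.91, 8.36 and 8.33 in PDPN- cells, 7.48, 7.71 and 7.20 in PDPN+BP3- cells and 8.06, 8.24 and 8.47 in PDPN+BP3+ cells. Means were higher in both PDPN- populations, although BP3+ arrays overlapped those of lymph node PDPN- cells (-1.35 ± 0.16, adjusted p 7.32e-06 in the thymus).

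Ephrins and Eph receptors signal in both directions between touching cells. Epha2, an Eph receptor common in epithelium and vessels, read 7.04, 6.97 and 6.98 in thymus PDPN- cells and 3.52, 3.18 and 3.45 in thymus PDPN+BP3- cells. For Epha2 in the lymph node, the arrays gave 6.86, 6.53 and 6.62 in PDPN- cells, 3.23, 3.43 and 3.28 in PDPN+BP3- cells and 2.74, 2.71 and 2.81 in PDPN+BP3+ cells. Both PDPN- populations were at 6.53 or above and all podoplanin-positive arrays at 3.52 or below, a gap wider than any spread within a population (-3.61 ± 0.12, adjusted p 7.32e-13 in the thymus). Epha3, a receptor of ephrin-A ligands that marks some mesenchymal cells, moved the other way. Epha3 read 6.21, 5.96 and 5.96 in thymus PDPN- cells and 8.47, 8.71 and 8.67 in thymus PDPN+BP3- cells. For Epha3 in the lymph node, the arrays gave 6.87, 6.23 and 5.79 in PDPN- cells, 9.08, 9.51 and 9.19 in PDPN+BP3- cells and 6.01, 6.08 and 5.90 in PDPN+BP3+ cells. Both PDPN+BP3- populations lay above the other 3 (2.57 ± 0.20, adjusted p 3.54e-08 in the thymus). Efna5, a GPI-anchored ligand of EphA receptors, read 2.56, 2.88 and 2.48 in thymus PDPN- cells and 4.97, 5.44 and 5.34 in thymus PDPN+BP3- cells. For Efna5 in the lymph node, the arrays gave 2.70, 2.99 and 2.80 in PDPN- cells, 3.51, 3.09 and 2.83 in PDPN+BP3- cells and 4.68, 5.10 and 5.48 in PDPN+BP3+ cells. Thymus PDPN+BP3- and lymph node PDPN+BP3+ cells overlapped each other and stood above the 3 other populations (2.61 ± 0.20, adjusted p 3.62e-08 in the thymus).

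Transcripts of some other cell types were present in the thymus sorts, and part of the listed genes differed in this comparison. The mean of 6 measured T lineage genes was 4.86 to 5.57 on the PDPN- arrays and 3.38 to 4.91 on the PDPN+BP3- arrays, with 2 of 6 lower in the latter, and that of 7 epithelial genes was 3.85 to 4.26 and 3.21 to 3.89, with 3 of 7 lower. Of 10 endothelial genes 2 were higher and 4 lower in PDPN+BP3- cells (list means 3.10 to 3.30 against 3.42 to 3.58), and of 3 mesothelial genes 2 were higher (3.03 to 3.43 against 2.54 to 2.72). A mean above the table median in any population was seen for 6 of the 10 endothelial and 0 of the 3 mesothelial genes. The signal of the others need not stand above background. What part these 4 lists have in the guidance genes was not tested. The 8 pericyte and smooth muscle genes were all lower in PDPN+BP3- cells, at a list mean of 6.31 to 6.55 against 9.995 to 10.13, and the 5 general mesenchyme genes were all higher, at 9.98 to 10.2 against 5.61 to 5.89.

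In the lymph node, the same comparison asked how podoplanin-positive BP3- cells differ from PDPN- cells. PDPN+BP3- cells had higher Sema3c, Sema3d, Robo2, Ntn1, Slit3, Epha3 and Epha7, and lower Sema7a, Epha2 and Plxnb1. Higher were 25 of the 67 guidance genes, or 37.3%, against 13.4% of all genes, and 11 were lower, or 16.4%, against 9.79% of all genes. The median difference was 0.11 over the guidance genes and -0.01 over all genes. Class 3 semaphorins gave 4 higher and 0 lower of 7, EphB receptors 4 higher of 4, neuropilins 2 higher of 2, and membrane-bound semaphorins 2 higher and 5 lower of 13. Of the EphB calls, that of Ephb4 ended without PDPN+BP3- replicate 2 (adjusted p 0.0652).

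Sema3c differed by 3.50 ± 0.20, adjusted p 1.17e-09 and Sema3d by 2.51 ± 0.26, adjusted p 1.81e-06, Slit3 by 2.03 ± 0.14, adjusted p 1.12e-08 and Robo2 by 2.16 ± 0.23, adjusted p 1.76e-06. Slit2 did not pass the threshold in the lymph node (0.11 ± 0.27, adjusted p 0.85), where replicate 1 of PDPN+BP3- cells read 4.89 against 3.76 and 3.59 in the other replicates. Leaving out 1 array at a time moved that difference between -0.30, without PDPN+BP3- replicate 1, and 0.35, without PDPN+BP3- replicate 3. Ntn1, the netrin that binds Dcc and Unc5 receptors, read 3.95, 3.93 and 3.97 in thymus PDPN- cells and 5.91, 6.29 and 6.34 in thymus PDPN+BP3- cells. For Ntn1 in the lymph node, the arrays gave 4.04, 3.74 and 4.15 in PDPN- cells, 6.24, 6.11 and 5.88 in PDPN+BP3- cells and 3.36, 3.47 and 3.48 in PDPN+BP3+ cells. Both PDPN+BP3- populations stood at 5.88 or above and the other 3 at 4.15 or below (2.10 ± 0.14, adjusted p 5.46e-09 in the lymph node and 2.23 ± 0.14 in the thymus).

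Among the Eph receptors Epha3 differed by 2.96 ± 0.20, adjusted p 8.96e-09. Epha7, another receptor of ephrin-A ligands, read 3.53, 3.41 and 3.35 in thymus PDPN- cells and 4.98, 5.30 and 5.21 in thymus PDPN+BP3- cells. For Epha7 in the lymph node, the arrays gave 3.44, 3.0 and 3.09 in PDPN- cells, 4.89, 5.25 and 5.57 in PDPN+BP3- cells and 2.74, 3.17 and 2.88 in PDPN+BP3+ cells. It was highest in both PDPN+BP3- populations, which overlapped each other (2.06 ± 0.17, adjusted p 8.91e-08 in the lymph node). Ephb3, a receptor of ephrin-B ligands, read 5.22, 5.33 and 4.97 in thymus PDPN- cells and 5.63, 6.14 and 6.48 in thymus PDPN+BP3- cells. For Ephb3 in the lymph node, the arrays gave 5.44, 4.61 and 4.41 in PDPN- cells, 6.75, 6.96 and 6.43 in PDPN+BP3- cells and 6.10, 6.11 and 6.46 in PDPN+BP3+ cells. In the lymph node both podoplanin-positive populations lay above PDPN- cells (1.89 ± 0.25, adjusted p 1.94e-05 for PDPN+BP3- cells). Efnb2, a transmembrane ligand of arterial endothelium and smooth muscle, read 6.63, 6.45 and 6.52 in thymus PDPN- cells and 6.17, 6.56 and 6.09 in thymus PDPN+BP3- cells. For Efnb2 in the lymph node, the arrays gave 6.34, 6.32 and 6.50 in PDPN- cells, 4.73, 4.91 and 4.60 in PDPN+BP3- cells and 5.36, 5.56 and 5.11 in PDPN+BP3+ cells. It was lower in both podoplanin-positive lymph node populations than in the 3 other populations (-1.64 ± 0.14, adjusted p 1.76e-07 for PDPN+BP3- cells).

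The neuropilins, co-receptors of class 3 semaphorins, were both higher in lymph node PDPN+BP3- cells. Nrp1 read 8.22, 7.77 and 7.95 in thymus PDPN- cells and 8.35, 8.58 and 8.37 in thymus PDPN+BP3- cells. For Nrp1 in the lymph node, the arrays gave 8.19, 7.79 and 7.95 in PDPN- cells, 9.34, 9.19 and 9.16 in PDPN+BP3- cells and 9.11, 9.02 and 9.20 in PDPN+BP3+ cells. Podoplanin-positive arrays of the lymph node, at 9.02 or above, lay over all other arrays (1.25 ± 0.13, adjusted p 1.88e-06 for PDPN+BP3- cells). Nrp2 read 6.77, 6.59 and 6.62 in thymus PDPN- cells and 6.77, 7.24 and 7.03 in thymus PDPN+BP3- cells. For Nrp2 in the lymph node, the arrays gave 6.15, 5.89 and 5.90 in PDPN- cells, 7.36, 7.27 and 6.91 in PDPN+BP3- cells and 6.18, 6.30 and 6.10 in PDPN+BP3+ cells. It was higher in lymph node PDPN+BP3- cells than in both other lymph node populations (1.20 ± 0.14, adjusted p 6.31e-06 against PDPN- cells). Sema7a (-3.47 ± 0.13, adjusted p 7.48e-12) and Epha2 (-3.36 ± 0.12, adjusted p 3.11e-12) were the furthest below, followed by Plxnb1 (-2.18 ± 0.15), Sema4c (-1.52 ± 0.18), Sema6d (-1.40 ± 0.16), Sema4a (-1.38 ± 0.13) and Plxnd1 (-1.07 ± 0.16). With the mean of both transcript clusters the Plxnb1 difference was -1.14.

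Endothelial transcripts moved with the lymph node PDPN+BP3- population. Of 10 endothelial genes 5 were higher than in PDPN- cells and 0 lower, and the list mean was 3.96 to 4.35 in PDPN+BP3- cells, with 3.12 to 3.62 in PDPN- cells. Pecam1 averaged 4.32 in PDPN- and 5.36 in PDPN+BP3- cells, and Cdh5 3.21 and 5.36. Of 3 measured glial and nerve genes 1, S100b, was higher. PDPN+BP3- cells were lower in all 8 pericyte and smooth muscle genes, at a list mean of 7.30 to 7.70 against 9.68 to 9.89, and all 5 general mesenchyme genes were higher, at 10.21 to 10.24 against 7.51 to 7.57. Endothelium is also known to express neuropilins, Robo4 and Efnb2, and the part of these marker lists in the guidance genes was not tested.

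The thymus and the lymph node comparison of PDPN+BP3- with PDPN- cells share no array, and their calls were set side by side. Both use the same estimate of spread for each gene, so the calls are not independent. Of the guidance genes, 15 were higher in both tissues and 8 lower in both. These 23 are 67.6% of those called in the thymus and 63.9% of those called in the lymph node, and the shares over all genes were 45.6% and 56.2%. Of the 67 guidance genes 34 were called in the thymus and 36 in the lymph node, against 5337 and 4332 of all 18718 genes. Calls were thus more frequent among guidance genes in each tissue, which raises such shares. They are not read as closer agreement between the tissues. Higher in both were Sema3b, Sema3c, Sema3d, Sema6a, Slit3, Robo2, Ntn1, Nrp1, Plxna3, Plxna4, Plxnc1, Epha3, Epha4, Epha7 and Ephb3. Lower in both were Sema4a, Sema4c, Sema5a, Sema6d, Sema7a, Plxnb1, Plxnd1 and Epha2. In the thymus, the calls of Nrp1, Plxna4 and Ephb3 ended in some runs that left out a single array. For Nrp1 adjusted p was 0.0899 without PDPN- replicate 2, 0.0503 without PDPN- replicate 3 and 0.0668 without PDPN+BP3- replicate 2. With the arrays compared alone it was 0.0535. For Plxna4 adjusted p was 0.0671 without PDPN- replicate 2 and 0.0662 without PDPN+BP3- replicate 2. For Ephb3 it was 0.0504 without PDPN+BP3- replicate 3.

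Whether the difference itself depended on tissue was tested as an interaction, the lymph node difference minus the thymus difference. Of the 67 guidance genes 13 were higher, or 19.4%, against 8.67% of all genes, and 11 were lower, or 16.4%, against 4.05% of all genes. The median was 0.09 over the guidance genes and 0.06 over all genes. With cyclic loess normalization the counts were 8 higher and 16 lower, and the median over all genes was -0.01. Leaving out replicate 1 of thymus PDPN+BP3- cells, the array with the lowest median, gave 9 higher and 13 lower. Without that array the interactions of Efna1 (adjusted p 0.0532), Plxna1 (0.0821), Sema3b (0.0515) and Sema6c (0.0598) were no longer called. For these alternative counts the shares of all genes are not given here. Sema5b differed most, being lower in the thymus (-3.68 ± 0.18) while the lymph node difference was -0.17 ± 0.18 (interaction 3.51 ± 0.25, adjusted p 1.4e-07). Sema3a was higher in the thymus (3.14 ± 0.19) and had a lymph node difference of -0.02 ± 0.19 (interaction -3.16 ± 0.27, adjusted p 7.86e-07). Efna5 (interaction -2.30 ± 0.29, adjusted p 4.67e-05) and Slit2 (-2.26 ± 0.38, adjusted p 0.000727) likewise differed more in the thymus, with lymph node differences of 0.31 ± 0.20 and 0.11 ± 0.27. Sema3c was higher in both tissues and more so in the thymus (-2.46 ± 0.28, adjusted p 2.17e-05), and Sema7a was lower in both and more so in the lymph node (-1.32 ± 0.18, adjusted p 0.000141).

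Opposite directions were called for 2 receptors. Robo1, a Slit receptor, read 7.02, 6.79 and 6.80 in thymus PDPN- cells and 7.90, 8.12 and 7.43 in thymus PDPN+BP3- cells. For Robo1 in the lymph node, the arrays gave 7.15, 6.42 and 6.71 in PDPN- cells, 6.0, 5.97 and 5.53 in PDPN+BP3- cells and 8.72, 8.82 and 8.69 in PDPN+BP3+ cells. In the thymus it was higher in PDPN+BP3- cells (0.95 ± 0.19, adjusted p 0.00123) and in the lymph node lower (-0.93 ± 0.19, adjusted p 0.00169), with an interaction of -1.87 ± 0.27, adjusted p 0.000197. Unc5c, a netrin receptor, read 4.83, 4.22 and 4.38 in thymus PDPN- cells and 5.32, 5.77 and 5.50 in thymus PDPN+BP3- cells. For Unc5c in the lymph node, the arrays gave 7.0, 6.62 and 6.69 in PDPN- cells, 6.34, 6.46 and 5.99 in PDPN+BP3- cells and 7.55, 7.63 and 7.66 in PDPN+BP3+ cells. It was higher in thymus PDPN+BP3- cells (1.05 ± 0.17, adjusted p 0.000149), whereas its lymph node difference of -0.51 ± 0.17, adjusted p 0.0402 lost the threshold without any of several arrays (up to adjusted p 0.18, without PDPN+BP3- replicate 3). The interaction of Unc5c was -1.56 ± 0.24, adjusted p 0.000334.

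**Figure D3:**
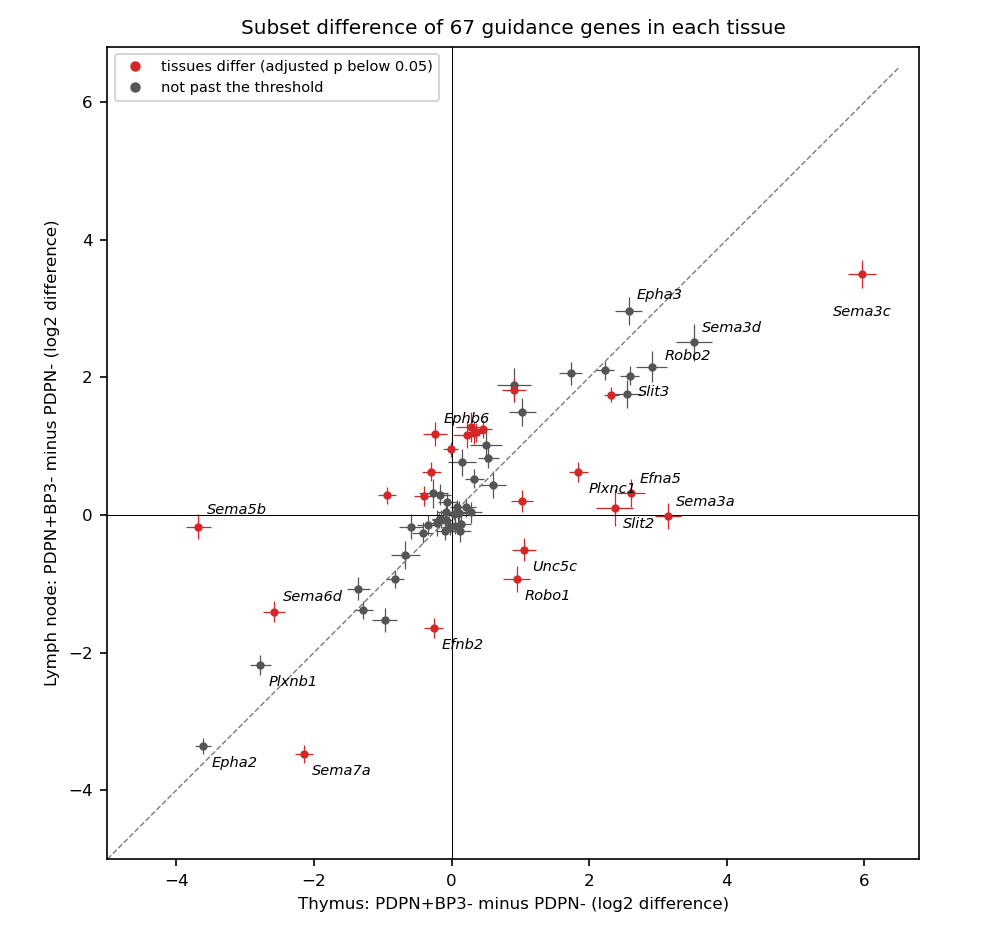
Log2 difference of PDPN+BP3- minus PDPN- cells in the thymus (x axis) and in the lymph node (y axis) for the 67 guidance genes, with bars for the SE of the fit and a dashed line of equal difference; red points are the 24 genes whose interaction passed the threshold. Sema3c, Sema3d, Epha3 and Slit3 lie at the upper right and Epha2 and Sema7a at the lower left, while Sema3a and Efna5 lie to the right and Sema5b to the left, near 0 on the lymph node axis.

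The BP3+ subset of podoplanin-positive lymph node cells was compared with both other lymph node populations. These comparisons share arrays with each other and with that of PDPN+BP3- and PDPN- cells, so their calls were not set against each other. Compared with PDPN- cells, BP3+ cells had higher Robo2, Plxna4, Sema3b, Sema6a, Efna5 and Robo1 and lower Epha2, Sema7a, Sema5b and Slit3. Calls were made for 19 higher guidance genes of 67, or 28.4%, against 16.1% of all genes, and for 15 lower ones, or 22.4%, against 11.2%. The median difference was 0.03 over the guidance genes and 0 over all genes. Both called Robo receptors and all 4 called plexins were higher, and 7 of 13 membrane-bound semaphorins and both called netrins and Slits were lower.

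Robo2 was highest in BP3+ cells, at 7.28 to 7.51 on the arrays given above (4.91 ± 0.23, adjusted p 6.61e-11), and Robo1 was too (1.98 ± 0.19, adjusted p 5.88e-07). These genes lie next to each other on chromosome 16 with 0 protein-coding genes between them. Yet in lymph node PDPN+BP3- against PDPN- cells Robo2 was higher and Robo1 lower. Plxna4, a plexin that pairs with neuropilin-1, read 2.42, 2.30 and 2.63 in thymus PDPN- cells and 2.70, 3.19 and 3.06 in thymus PDPN+BP3- cells. For Plxna4 in the lymph node, the arrays gave 2.57, 2.65 and 2.65 in PDPN- cells, 3.19, 3.79 and 3.38 in PDPN+BP3- cells and 5.36, 5.47 and 5.45 in PDPN+BP3+ cells. BP3+ cells stood above all other populations, which were at 3.79 or below (2.80 ± 0.15, adjusted p 5.1e-10). Sema3b, a secreted semaphorin, read 3.13, 3.27 and 3.32 in thymus PDPN- cells and 3.71, 4.14 and 4.60 in thymus PDPN+BP3- cells. For Sema3b in the lymph node, the arrays gave 3.75, 3.43 and 3.37 in PDPN- cells, 5.45, 5.42 and 5.12 in PDPN+BP3- cells and 6.10, 6.19 and 6.31 in PDPN+BP3+ cells. It rose from PDPN- through PDPN+BP3- to PDPN+BP3+ cells in the lymph node with no overlap (2.68 ± 0.18, adjusted p 6.29e-09 for BP3+ against PDPN- cells). Sema3f, which lies 3 protein-coding genes from Sema3b on chromosome 9, also had its highest mean in BP3+ cells. That mean of 5.95 was close to the 5.86 of lymph node PDPN+BP3- cells, and their arrays overlapped. In the thymus Sema3b was called higher in PDPN+BP3- cells and Sema3f was not called.

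Plxnc1, the receptor of Sema7a, read 2.20, 2.59 and 2.56 in thymus PDPN- cells and 3.96, 4.54 and 4.38 in thymus PDPN+BP3- cells. For Plxnc1 in the lymph node, the arrays gave 2.52, 2.39 and 2.48 in PDPN- cells, 3.12, 3.05 and 3.09 in PDPN+BP3- cells and 4.18, 3.98 and 4.09 in PDPN+BP3+ cells. It was lowest in both PDPN- populations, where Sema7a was highest (1.62 ± 0.14, adjusted p 1.65e-07 for BP3+ against PDPN- cells). Plxna2, a receptor of class 6 semaphorins, read 5.99, 5.65 and 5.97 in thymus PDPN- cells and 5.97, 6.50 and 6.14 in thymus PDPN+BP3- cells. For Plxna2 in the lymph node, the arrays gave 5.51, 5.0 and 4.94 in PDPN- cells, 6.41, 6.33 and 6.29 in PDPN+BP3- cells and 6.54, 6.61 and 6.66 in PDPN+BP3+ cells. It was lowest in lymph node PDPN- cells and highest in BP3+ cells (1.45 ± 0.16, adjusted p 2.5e-06). Sema6a differed by 2.28 ± 0.20, adjusted p 2.49e-07 and Efna5 by 2.26 ± 0.20, adjusted p 2.62e-07. Lower in BP3+ cells were Epha2 (-3.92 ± 0.12, adjusted p 3.1e-13), Sema7a (-3.38 ± 0.13, adjusted p 7.93e-12), Sema5b (-2.48 ± 0.18, adjusted p 1.67e-08) and Slit3 (-1.86 ± 0.14, adjusted p 2.79e-08). Slit2 (-1.35 ± 0.27, adjusted p 0.00109) and Sema3c (-0.94 ± 0.20, adjusted p 0.00189) were lower as well, with BP3+ arrays below every PDPN- array of the lymph node. Ntn4, a laminin-related netrin of basement membranes, read 6.08, 5.62 and 5.56 in thymus PDPN- cells and 5.06, 5.20 and 4.98 in thymus PDPN+BP3- cells. For Ntn4 in the lymph node, the arrays gave 5.23, 4.86 and 5.34 in PDPN- cells, 5.16, 4.26 and 4.26 in PDPN+BP3- cells and 3.67, 3.69 and 3.63 in PDPN+BP3+ cells. BP3+ cells were lowest without overlap (-1.48 ± 0.21, adjusted p 4.14e-05 against PDPN- cells). Against PDPN- cells, BP3+ cells were lower in 8 of 8 pericyte and smooth muscle genes (list mean 8.03 to 8.09 against 9.68 to 9.89), 3 of 5 general mesenchyme genes were higher (8.70 to 8.90 against 7.51 to 7.57), and of 10 endothelial genes 1 was higher and 2 lower (3.22 to 3.40 against 3.12 to 3.62). Their part in the guidance genes was not tested.

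**Figure D4:**
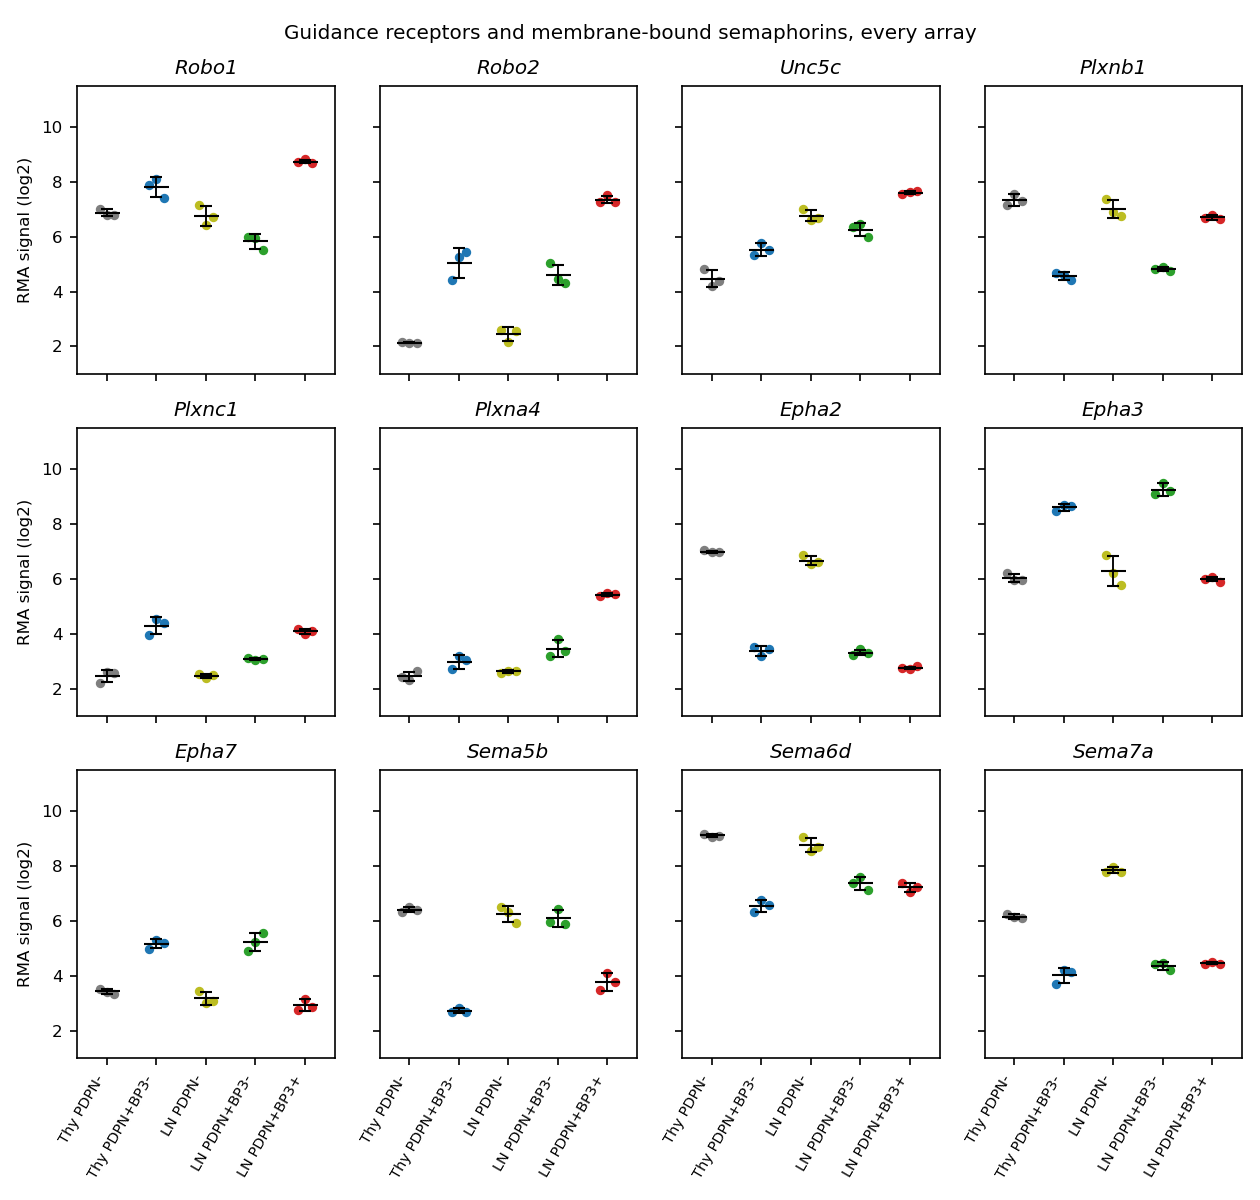
Log2 RMA signal (y axis) of guidance receptors and membrane-bound semaphorins in the 5 populations (x axis); points are the 3 arrays and bars the mean ± SD. Epha2, Sema7a and Sema6d are highest in PDPN- cells of both tissues, Epha3 and Epha7 in both PDPN+BP3- populations, and Robo1, Robo2 and Plxna4 in lymph node PDPN+BP3+ cells.

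Within podoplanin-positive lymph node cells, BP3+ cells had lower Sema3c, Sema3d, Slit2, Slit3, Ntn1 and Ntn4 than BP3- cells, and higher Robo1, Robo2 and Plxna4. Of the secreted ligands Sema3b was higher (0.87 ± 0.18, adjusted p 0.00221). Of the 67 guidance genes 11 were higher, or 16.4%, against 8.49% of all genes, and 15 were lower, or 22.4%, against 7.74% of all genes. The median difference was -0.01 over the guidance genes and 0.01 over all genes. Sema3c (-4.44 ± 0.20, adjusted p 1.29e-10), Slit3 (-3.88 ± 0.14, adjusted p 9.09e-12), Epha3 (-3.26 ± 0.20, adjusted p 4.64e-09) and Ntn1 (-2.64 ± 0.14, adjusted p 5.91e-10) fell furthest. Sema3d, Sema5b, Epha7 and Slit2 were lower by -2.59 ± 0.26, -2.31 ± 0.18, -2.31 ± 0.17 and -1.45 ± 0.27. For all of these falls no BP3+ array reached any BP3- array. Genes were picked for description partly by such lack of overlap, so it is no separate result.

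Robo1 (2.91 ± 0.19, adjusted p 1.06e-08) and Robo2 (2.75 ± 0.23, adjusted p 1.55e-07) rose most, followed by Plxna4 (1.97 ± 0.15), Efna5 (1.94 ± 0.20) and Plxnb1 (1.89 ± 0.15). With the mean of both transcript clusters the Plxnb1 difference was 0.96. Unc5c (1.35 ± 0.17, adjusted p 1.86e-05) and Plxnc1 (1.0 ± 0.14, adjusted p 6.54e-05) were higher too. Plxnb2, a plexin that binds Sema4c, read 8.59, 8.38 and 8.37 in thymus PDPN- cells and 7.57, 8.01 and 8.0 in thymus PDPN+BP3- cells. For Plxnb2 in the lymph node, the arrays gave 8.59, 7.99 and 8.08 in PDPN- cells, 8.14, 8.29 and 7.72 in PDPN+BP3- cells and 8.90, 8.89 and 9.13 in PDPN+BP3+ cells. BP3+ cells were highest without overlap (0.92 ± 0.18, adjusted p 0.00126 against BP3- cells). By family, 5 of 9 plexins were higher and 1 lower, 4 of 9 EphA receptors were lower, and both called Robo receptors were higher. Of 10 endothelial genes 6 were lower in BP3+ cells (list mean 3.22 to 3.40 against 3.96 to 4.35) and 0 higher. As to perivascular genes, 4 of 8 pericyte and smooth muscle genes were higher (8.03 to 8.09 against 7.30 to 7.70), and all 5 general mesenchyme genes were lower (8.70 to 8.90 against 10.21 to 10.24). The part of these lists in the guidance genes was not tested.

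**Figure D5:**
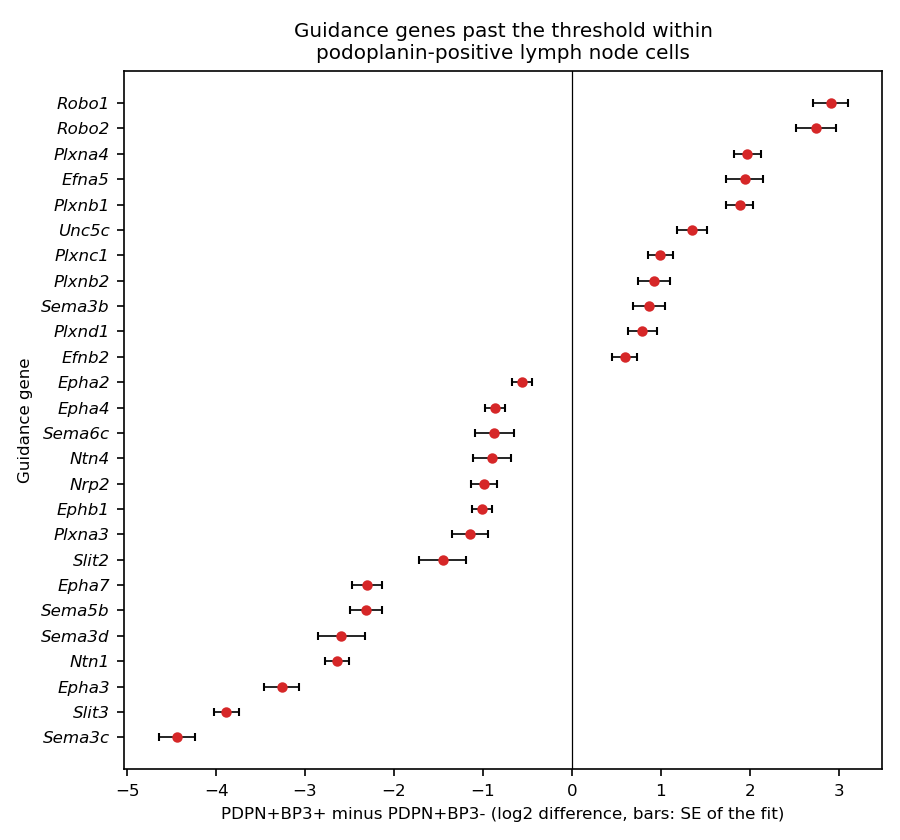
Log2 difference of lymph node PDPN+BP3+ minus PDPN+BP3- cells (x axis, bars for the SE of the fit) for the 26 guidance genes past the threshold (y axis), ordered by size. Sema3c, at -4.44, and Slit3, at -3.88, lie furthest to the left and Robo1, at 2.91, and Robo2, at 2.75, furthest to the right.

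Between tissues, podoplanin-positive BP3- cells of the lymph node differed from those of the thymus mainly by lower Slit2, Sema3a, Efna5 and Robo1 and higher Sema5b and Sema4b. In the lymph node 18 of the 67 guidance genes were higher, or 26.9%, against 11.8% of all genes, and 11 were lower, or 16.4%, against 5.29% of all genes. The median difference was 0.14 over the guidance genes and 0.04 over all genes. The counts depended on single arrays and on scaling. They were 10 higher and 12 lower without thymus PDPN+BP3- replicate 1, the array with the lowest median. Without lymph node PDPN+BP3- replicate 2 they were 11 higher and 8 lower, and with cyclic loess 12 higher and 13 lower. The median difference over all genes was -0.006 with cyclic loess. Shares of all genes called in these runs are not given here. Shifts of the whole table and of the guidance genes thus cannot be told apart. Without thymus PDPN+BP3- replicate 1 the calls of Epha3 (adjusted p 0.123), Epha4 (0.107), Plxna3 (0.14), Plxna4 (0.201), Robo4 (0.0638), Sema5a (0.0545), Sema6c (0.11) and Slit3 (0.0838) ended.

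Slit2 was lower in the lymph node by the widest margin (-4.30 ± 0.27, adjusted p 1.15e-08), with every lymph node array at 4.89 or below and every thymus PDPN+BP3- array at 8.17 or above. Sema3a (-3.03 ± 0.19, adjusted p 1.12e-08), Efna5 (-2.11 ± 0.20, adjusted p 1.56e-06), Robo1 (-1.98 ± 0.19, adjusted p 1.55e-06) and Sema3c (-1.54 ± 0.20, adjusted p 3.87e-05) were lower too. So were Efnb2 (-1.53 ± 0.14) and Plxnc1 (-1.21 ± 0.14). Unc5b, a netrin receptor of vessels, read 4.86, 5.03 and 4.80 in thymus PDPN- cells and 5.77, 5.85 and 6.14 in thymus PDPN+BP3- cells. For Unc5b in the lymph node, the arrays gave 5.06, 4.50 and 4.58 in PDPN- cells, 4.99, 5.11 and 4.65 in PDPN+BP3- cells and 4.97, 5.07 and 4.99 in PDPN+BP3+ cells. It was highest in thymus PDPN+BP3- cells, with the other 12 arrays at 5.11 or below (-1.0 ± 0.16, adjusted p 0.000224).

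Sema5b was higher in the lymph node (3.36 ± 0.18, adjusted p 1.74e-09). Sema4b, a transmembrane semaphorin, read 6.16, 6.17 and 6.22 in thymus PDPN- cells and 5.01, 5.23 and 5.50 in thymus PDPN+BP3- cells. For Sema4b in the lymph node, the arrays gave 6.34, 6.22 and 6.47 in PDPN- cells, 6.53, 6.78 and 6.58 in PDPN+BP3- cells and 6.29, 6.20 and 6.41 in PDPN+BP3+ cells. It was lowest in thymus PDPN+BP3- cells without overlap (1.38 ± 0.13, adjusted p 7.67e-07). Sema3b differed by 1.18 ± 0.18, adjusted p 0.000178 and Sema6d by 0.83 ± 0.16, adjusted p 0.00128. Efna1, an ephrin-A ligand, read 3.08, 2.90 and 2.74 in thymus PDPN- cells and 3.16, 2.95 and 3.27 in thymus PDPN+BP3- cells. For Efna1 in the lymph node, the arrays gave 3.56, 3.01 and 3.09 in PDPN- cells, 4.44, 3.97 and 4.74 in PDPN+BP3- cells and 4.39, 3.86 and 4.24 in PDPN+BP3+ cells. Both podoplanin-positive lymph node populations stood above the rest (1.26 ± 0.20, adjusted p 0.000237 for PDPN+BP3- cells of the tissues). Efnb1, an ephrin-B ligand, read 5.35, 5.58 and 5.30 in thymus PDPN- cells and 5.47, 6.28 and 6.27 in thymus PDPN+BP3- cells. For Efnb1 in the lymph node, the arrays gave 6.65, 6.52 and 6.21 in PDPN- cells, 6.82, 7.18 and 6.70 in PDPN+BP3- cells and 7.28, 7.46 and 7.35 in PDPN+BP3+ cells. Each lymph node population had a higher mean than either thymus population (0.89 ± 0.19, adjusted p 0.00399 for PDPN+BP3- cells).

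Ephb6, an Eph receptor without kinase activity, read 3.64, 3.90 and 4.23 in thymus PDPN- cells and 3.36, 3.72 and 3.99 in thymus PDPN+BP3- cells. For Ephb6 in the lymph node, the arrays gave 3.40, 3.66 and 3.97 in PDPN- cells, 4.87, 4.92 and 4.78 in PDPN+BP3- cells and 5.07, 5.09 and 5.14 in PDPN+BP3+ cells. It was highest in both podoplanin-positive lymph node populations (1.17 ± 0.17, adjusted p 0.000154 for PDPN+BP3- cells of the tissues). Ephb1, a receptor of ephrin-B ligands, read 2.0, 2.15 and 2.18 in thymus PDPN- cells and 2.18, 1.97 and 2.14 in thymus PDPN+BP3- cells. For Ephb1 in the lymph node, the arrays gave 2.0, 2.12 and 2.14 in PDPN- cells, 2.87, 3.23 and 3.02 in PDPN+BP3- cells and 2.07, 2.04 and 1.98 in PDPN+BP3+ cells. It was highest in lymph node PDPN+BP3- cells (0.94 ± 0.11, adjusted p 1.19e-05 against the thymus). All its arrays lay below the median of the table, and its second transcript cluster averaged 2.17 to 2.37, so that with the mean of both clusters the difference was 0.56. Transcripts of other thymic cells differed between the tissues in both comparisons. The 6 T lineage genes averaged 2.76 to 2.93 on lymph node PDPN+BP3- arrays, with 5 of 6 lower than in the thymus, and the 7 epithelial genes 2.73 to 2.90, with 5 of 7 lower. Of 10 endothelial genes 5 were higher in the lymph node (3.96 to 4.35 against 3.10 to 3.30). Of 8 pericyte and smooth muscle genes 7 were higher and 1 lower in the lymph node (7.30 to 7.70 against 6.31 to 6.55), and of 3 mesothelial genes 2 were lower (2.26 to 2.42 against 3.03 to 3.43). The part of these lists in the guidance genes was not tested.

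PDPN- cells of the lymph node had higher Unc5c, Sema7a and Sema6a and lower Slit2 than PDPN- cells of the thymus. Higher in the lymph node were 9 of the 67 guidance genes, or 13.4%, against 4.42% of all genes, and 6 were lower, or 8.96%, against 5.19% of all genes. The median difference was -0.02 over the guidance genes and -0.01 over all genes. Unc5c (2.29 ± 0.17, adjusted p 1.61e-07), Sema7a (1.68 ± 0.13, adjusted p 2.81e-07), Sema6a (1.39 ± 0.20, adjusted p 0.000233) and Slit3 (1.06 ± 0.14, adjusted p 8.14e-05) rose most. Efnb1 (1.05 ± 0.19, adjusted p 0.0018), Sema3c (0.91 ± 0.20, adjusted p 0.00684) and Sema4c (0.88 ± 0.18, adjusted p 0.00338) were higher too. Epha4, an Eph receptor that binds ephrins of both classes, read 3.73, 3.95 and 3.92 in thymus PDPN- cells and 6.14, 6.29 and 6.14 in thymus PDPN+BP3- cells. For Epha4 in the lymph node, the arrays gave 4.78, 4.63 and 4.99 in PDPN- cells, 6.46, 6.58 and 6.61 in PDPN+BP3- cells and 5.56, 5.78 and 5.73 in PDPN+BP3+ cells. It was lowest in thymus PDPN- cells without overlap (0.93 ± 0.11, adjusted p 3.86e-05).

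Slit2 was lower in lymph node PDPN- cells (-2.04 ± 0.27, adjusted p 7.82e-05). Plxna1, a receptor of Sema6d, read 8.45, 8.21 and 8.41 in thymus PDPN- cells and 7.85, 8.11 and 7.92 in thymus PDPN+BP3- cells. For Plxna1 in the lymph node, the arrays gave 7.76, 7.47 and 7.48 in PDPN- cells, 8.02, 8.0 and 7.52 in PDPN+BP3- cells and 7.78, 7.89 and 7.60 in PDPN+BP3+ cells. Thymus PDPN- cells were highest without overlap (-0.79 ± 0.14, adjusted p 0.00165). Sema6b, a transmembrane semaphorin, read 4.97, 4.78 and 5.0 in thymus PDPN- cells and 4.36, 4.65 and 4.70 in thymus PDPN+BP3- cells. For Sema6b in the lymph node, the arrays gave 4.13, 4.22 and 4.20 in PDPN- cells, 4.39, 3.85 and 3.87 in PDPN+BP3- cells and 3.58, 3.94 and 3.73 in PDPN+BP3+ cells. Here too thymus PDPN- cells were highest (-0.73 ± 0.15, adjusted p 0.00364). Plxna2 (-0.72 ± 0.16, adjusted p 0.00696) and Nrp2 (-0.68 ± 0.14, adjusted p 0.00449) were lower as well. Sema3f, a ligand of neuropilin-2, read 5.73, 5.84 and 5.71 in thymus PDPN- cells and 5.26, 5.42 and 5.71 in thymus PDPN+BP3- cells. For Sema3f in the lymph node, the arrays gave 5.19, 5.42 and 5.08 in PDPN- cells, 5.83, 6.01 and 5.74 in PDPN+BP3- cells and 6.12, 5.98 and 5.75 in PDPN+BP3+ cells. Its difference of -0.53 ± 0.14, adjusted p 0.0205 lost the threshold without thymus PDPN- replicate 1 (adjusted p 0.0557), thymus PDPN- replicate 2 (0.0838) or lymph node PDPN- replicate 3 (0.0919). Of the T lineage genes 5 of 6 and of the epithelial genes 6 of 7 were lower in the lymph node. All 5 general mesenchyme genes were higher there (7.51 to 7.57 against 5.61 to 5.89), and lower there were 3 of 8 pericyte and smooth muscle genes (9.68 to 9.89 against 9.995 to 10.13). The part of these lists in the guidance genes was not tested.

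Sema5a, a transmembrane semaphorin with thrombospondin repeats, read 8.49, 8.57 and 8.53 in thymus PDPN- cells and 7.54, 7.86 and 7.74 in thymus PDPN+BP3- cells. For Sema5a in the lymph node, the arrays gave 9.39, 9.08 and 9.01 in PDPN- cells, 8.05, 8.39 and 8.24 in PDPN+BP3- cells and 8.07, 8.32 and 8.34 in PDPN+BP3+ cells. PDPN- cells were higher than podoplanin-positive cells in each tissue. Plxna3, a plexin that acts with neuropilin-2, read 3.12, 3.07 and 3.10 in thymus PDPN- cells and 3.74, 4.30 and 4.34 in thymus PDPN+BP3- cells. For Plxna3 in the lymph node, the arrays gave 3.61, 3.24 and 3.09 in PDPN- cells, 4.94, 5.10 and 4.38 in PDPN+BP3- cells and 3.93, 3.43 and 3.63 in PDPN+BP3+ cells. Lymph node PDPN+BP3- cells were highest. Sema6c, a transmembrane semaphorin, read 3.89, 3.48 and 3.61 in thymus PDPN- cells and 3.27, 4.23 and 4.33 in thymus PDPN+BP3- cells. For Sema6c in the lymph node, the arrays gave 3.57, 3.45 and 3.22 in PDPN- cells, 4.71, 4.69 and 4.67 in PDPN+BP3- cells and 3.66, 3.68 and 4.12 in PDPN+BP3+ cells. Its interaction of 0.99 ± 0.31, adjusted p 0.0474 lost the threshold without any of 11 arrays and was 0.66 without thymus PDPN+BP3- replicate 1, whose value of 3.27 lay below those of the other replicates. Ephb4, the venous partner of ephrin-B2, had population means of 5.67 to 6.32, Unc5a, a netrin receptor, 3.84 to 4.60, the ligands Efna2 and Efna4 3.71 to 4.91 and 3.19 to 3.92, Efnb3 2.75 to 3.71, and Sema4d, the ligand of plexin-B1, 3.07 to 3.61.

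Of the 17 guidance genes that did not pass the F test, 15 had no population mean above the table median. Across all 15 arrays Sema3e ranged from 1.99 to 2.46, Sema3g from 2.48 to 3.08, Slit1 from 2.11 to 2.63, Epha5 from 1.83 to 2.11 and Epha6 from 1.72 to 2.18. Robo3 ranged from 1.87 to 2.44 and Robo4, a Robo receptor of endothelium, from 2.39 to 3.19. The 2 with a mean above it were Ntn3, at 3.82 to 4.33, and Epha1, at 3.12 to 4.32. The pairwise counts include genes that the F test did not pass. Epha1 was called lower in lymph node BP3+ than in PDPN- cells (-0.64). That call ended without PDPN- replicate 2 (adjusted p 0.0912) or BP3+ replicate 2 (0.073). Robo4 was called higher in lymph node than in thymus PDPN+BP3- cells (0.54). No detection call was used, so a low signal is not read as absence of the transcript.

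Of 46 co-receptors, ligands and intracellular effectors of guidance signalling that are outside the set, 42 were measured. In thymus PDPN+BP3- against PDPN- cells 11 were higher and 11 lower, where 10.3% and 18.2% of all genes were. In the lymph node 10 were higher and 13 lower, with 13.4% and 9.79% of all genes. BP3+ cells had 7 higher and 13 lower against PDPN- cells (16.1% and 11.2% of all genes), and 6 higher and 9 lower against PDPN+BP3- cells (8.49% and 7.74%). Between tissues 3 were higher and 7 lower in lymph node PDPN+BP3- cells (11.8% and 5.29% of all genes), and 7 higher and 3 lower in lymph node PDPN- cells (4.42% and 5.19%). The Unc5 ligand Flrt2, a membrane protein, read 2.41, 2.88 and 2.79 in thymus PDPN- cells and 8.39, 8.75 and 8.72 in thymus PDPN+BP3- cells. For Flrt2 in the lymph node, the arrays gave 5.62, 4.88 and 4.75 in PDPN- cells, 8.84, 8.77 and 8.85 in PDPN+BP3- cells and 4.52, 4.38 and 3.83 in PDPN+BP3+ cells. As with Sema3c, both PDPN+BP3- populations were highest (5.93 ± 0.21, adjusted p 3.08e-12 in the thymus and 3.74 ± 0.21, adjusted p 1.19e-09 in the lymph node). Unlike Sema3c, Flrt2 read no lower in lymph node than in thymus PDPN+BP3- cells.

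Flrt3, of the same family, read 2.56, 2.66 and 2.53 in thymus PDPN- cells and 4.83, 5.13 and 5.33 in thymus PDPN+BP3- cells. For Flrt3 in the lymph node, the arrays gave 2.75, 2.66 and 2.43 in PDPN- cells, 5.19, 5.26 and 5.37 in PDPN+BP3- cells and 7.10, 7.35 and 7.35 in PDPN+BP3+ cells. It was highest in BP3+ cells (4.65 ± 0.13, adjusted p 2.25e-13 against PDPN- cells). Chn1, a chimaerin that acts on Rac below EphA4, was lower in both podoplanin-positive lymph node populations than in PDPN- cells, by -4.66 ± 0.18 for PDPN+BP3- and -5.02 ± 0.18 for PDPN+BP3+ cells. Dpysl3, a CRMP protein of semaphorin signalling, was higher in thymus PDPN+BP3- cells (3.33 ± 0.12, adjusted p 2.91e-12), and Mical2, a MICAL family oxidoreductase, was lower (-2.43 ± 0.20, adjusted p 5.87e-08). In the lymph node Tiam1, an exchange factor for Rac, was higher in the PDPN+BP3- subset (2.67 ± 0.17, adjusted p 3.87e-09 against PDPN- cells). The kinase Fyn was lower in BP3+ than in BP3- cells (-3.50 ± 0.19, adjusted p 8.43e-10), and Rgma, a ligand of neogenin, was lower in lymph node than in thymus PDPN- cells (-1.72 ± 0.15, adjusted p 1.09e-06).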

How the data were processed

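Mesenchymal cells of 5 sorted populations were measured on 15 arrays, 3 per population. The deposited log2 signals were made by the authors with RMA in the Affymetrix Expression Console, per the submitters' processing notes. Neither tool versions nor a genome build is given in the sources used here. Base 2 was inferred from the values, which run from 1.07 to 12.07. RMA fits the arrays jointly and narrows differences near background. Of 24758 transcript clusters, 20844 had 1 gene symbol in the array annotation, 1735 several and 2179 none. All 67 gene identifiers matched the RefSeq table.

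Limma 3.58.1 in R 4.3.3 fitted 1 mean per population over all 15 arrays (residual degrees of freedom 10, prior 5.50), and p-values were adjusted by Benjamini-Hochberg over all 18718 genes. The code was tested on simulated data. Groups and replicate numbers came from the titles. Same-numbered arrays did not deviate together by the rule used, which asked for every correlation in a population pair to be over 0.1. Correlations were -0.174 to 0.288, and 0 of 10 population pairs had all of them over 0.1. Numbers were therefore not used as a block in the main fit. Number of arrays limits precision.

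The genes and all lists were chosen with earlier results of these data known. Genes given with every array were Sema3c, Slit2 and, per comparison, up to 8 rises and 8 falls, the largest whose arrays did not overlap. Nrp1, Sema5a, Plxna3, Flrt2 and Flrt3 were added after their values were seen. From 46 co-receptors and effectors, up to 4 per comparison with the smallest adjusted p qualified, and Dpysl3, Chn1 and the others named are examples of these. Alternatives were a trended robust prior, cyclic loess, a filter on low signal, the arrays compared alone, the mean of a gene's clusters, a replicate block and leaving out each array.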

Additional observations from a re-analysis of the deposited data

Results flagged for a closer look

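For 24 guidance genes the shift from PDPN- to PDPN+BP3- cells itself differed between tissues, by the interaction term of the limma fit. Values are the lymph node difference minus the thymus difference in log2 signal, with 3 arrays per population. Every value kept its sign in all alternatives run.

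Among secreted ligands these were Sema3a (-3.16 ± 0.27, adjusted p 7.86e-07, with 3.14 in the thymus and -0.02 in the lymph node), Sema3c (-2.46 ± 0.28, adjusted p 2.17e-05, with 5.96 in the thymus and 3.5 in the lymph node) and Slit2 (-2.26 ± 0.38, adjusted p 0.000727, with 2.37 in the thymus and 0.11 in the lymph node). Smaller ones were Sema3f (0.93 ± 0.19, adjusted p 0.00421, with -0.30 in the thymus and 0.63 in the lymph node) and Sema3b (0.90 ± 0.25, adjusted p 0.0271, with 0.91 in the thymus and 1.81 in the lymph node).

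Among membrane-bound semaphorins the largest was Sema5b (3.51 ± 0.25, adjusted p 1.4e-07, with -3.68 in the thymus and -0.17 in the lymph node). The others were Sema7a (-1.32 ± 0.18, adjusted p 0.000141, with -2.15 in the thymus and -3.47 in the lymph node) and Sema4b (1.22 ± 0.18, adjusted p 0.000201, with -0.94 in the thymus and 0.29 in the lymph node), followed by Sema6d (1.17 ± 0.22, adjusted p 0.00186, with -2.58 in the thymus and -1.40 in the lymph node) and Sema6c (0.99 ± 0.31, adjusted p 0.0474, with 0.28 in the thymus and 1.28 in the lymph node).

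Among receptors of Slits and netrins these were Robo1 (-1.87 ± 0.27, adjusted p 0.000197, with 0.95 in the thymus and -0.93 in the lymph node), Unc5c (-1.56 ± 0.24, adjusted p 0.000334, with 1.05 in the thymus and -0.51 in the lymph node) and Unc5b (-0.82 ± 0.22, adjusted p 0.0216, with 1.02 in the thymus and 0.20 in the lymph node). Among plexins they were Plxnc1 (-1.22 ± 0.20, adjusted p 0.000568, with 1.84 in the thymus and 0.62 in the lymph node), Plxna2 (0.86 ± 0.22, adjusted p 0.0184, with 0.33 in the thymus and 1.19 in the lymph node) and Plxna1 (0.67 ± 0.20, adjusted p 0.0398, with -0.40 in the thymus and 0.28 in the lymph node). Both neuropilins qualified, Nrp2 (0.85 ± 0.20, adjusted p 0.00965, with 0.35 in the thymus and 1.20 in the lymph node) and Nrp1 (0.80 ± 0.19, adjusted p 0.00924, with 0.45 in the thymus and 1.25 in the lymph node).

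Among ephrins these were Efna5 (-2.30 ± 0.29, adjusted p 4.67e-05, with 2.61 in the thymus and 0.31 in the lymph node), Efnb2 (-1.38 ± 0.20, adjusted p 0.000204, with -0.26 in the thymus and -1.64 in the lymph node) and Efna1 (0.94 ± 0.28, adjusted p 0.0349, with 0.22 in the thymus and 1.16 in the lymph node). Among Eph receptors they were Ephb6 (1.41 ± 0.25, adjusted p 0.00101, with -0.23 in the thymus and 1.18 in the lymph node), Ephb1 (0.97 ± 0.16, adjusted p 0.000489, with -0.01 in the thymus and 0.95 in the lymph node) and Epha4 (-0.57 ± 0.16, adjusted p 0.0281, with 2.32 in the thymus and 1.75 in the lymph node). For Sema6c, Efna1, Epha4, Plxna1, Plxna2, Sema3b and Unc5b the call ended without at least 1 array, with adjusted p up to 0.125, 0.0939, 0.101, 0.177, 0.12, 0.0682 and 0.0539 over all alternatives. No cause was tested for any of the 24.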

How the results depend on the processing

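Counts of called guidance genes stayed within 1.5 times the reported ones in every alternative but 1. For lymph node against thymus PDPN+BP3- cells 29 were called, and leaving out 1 array at a time gave 19 to 32, with 19 without lymph node PDPN+BP3- replicate 2. With the replicate block the counts were 35, 37, 35, 27, 30 and 15 for the 6 pairwise comparisons in the order of the report. The interaction had 23, and Sema6c lost its interaction call (adjusted p 0.0604). Shares of all genes called in these alternatives are not given here. Shifts of the whole table and of the guidance genes thus cannot be told apart. The replicate numbers did not pair the arrays, and 8 of 15 arrays correlated best with their own number.

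The 199 pairs of gene and comparison followed were those past the threshold, with Sema3c and Slit2 always included. Of these, 167 stayed on the same side of the threshold in every alternative, and 32 lost or gained the call in at least 1. For called differences 0 reversed. The Slit2 difference between lymph node PDPN+BP3- and PDPN- cells, which was not called, changed sign (0.11, and -0.30 without PDPN+BP3- replicate 1). Cyclic loess ended calls of Ntn4 (adjusted p 0.163) and Plxnb2 (0.0786) in the thymus and of Slit3 (0.11), Epha3 (0.171), Epha4 (0.67), Plxna3 (0.0531), Plxna4 (0.0639) and Sema5a (0.0783) between PDPN+BP3- cells of the tissues. It also ended the interaction calls of Efna1 (0.0799), Plxna1 (0.177), Plxna2 (0.12), Sema3b (0.061) and Sema6c (0.0676). The filter on low signal kept 49 of the 67 genes and 10565 genes in all. No background measure was used, so differences of genes with signal below the table median may be understated.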
